A study of Mus musculus with 6 samples.

Results

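In activated CD8+ T cells cultured for 48 h opposite PD-1-resistant lung adenocarcinoma cells, 1230 regions of open chromatin were called in all 3 libraries facing tumour cells with Fabp7 knocked down and in none of the 3 libraries facing control tumour cells. They were 1.13% of the 108679 merged regions. To choose them, each library's peak list was cut to its 82153 peaks of highest −log10 q, the length of the shortest deposited list, so that no library entered more peaks than another. Peaks that overlapped by at least 1 bp on chromosomes 1 to 19 and X were merged, and a region was kept if it held a peak in 3 of 3 Res-shFabp7 libraries and in 0 of 3 Res-ctrl libraries. The mirrored choice, a peak in 3 of 3 Res-ctrl and 0 of 3 Res-shFabp7 libraries, gave 572 regions (0.526%), and 52189 regions (48.0%) held a peak in all 6 libraries. The regions were chosen by the peak calls and their −log10 q in these 6 libraries, so their counts and peak values are given as a description, with no test.

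The T cells came from mouse spleen by negative selection for CD8+ cells and were activated with antibodies to CD3ε (5 μg/mL) and CD28 (1 μg/mL). They were placed in the lower chamber of a transwell, a culture dish whose porous insert separates cells that share a medium. The insert held PD-1-resistant lung adenocarcinoma cells, either Res-ctrl or Res-shFabp7, the latter carrying a short hairpin RNA against Fabp7, a fatty acid binding protein. Each group had 3 libraries that the labels call biological replicates. The T cells of both groups were thus exposed to resistant tumour cells, and no group without tumour cells was analysed here. The labels do not name the mouse strain, the age, or the number of hairpins or tumour clones, and the knockdown in the tumour cells cannot be read from T cell chromatin.

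ATAC-seq marks open chromatin with a transposase that inserts sequencing adapters where DNA is not wrapped tightly in nucleosomes. Open regions at gene starts are promoters, many of which are open in most cell types, whereas regions inside introns and between genes include enhancers, which bind transcription factors and differ more between cell states. In CD8+ T cells, antigen receptor and CD28 signals open many such distal regions through factors of the AP-1, NFAT, NF-kappaB and IRF families.

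Few of the regions lay on promoters. A promoter window here runs from 250 bases before to 50 bases after a gene start, as RefSeq gives it on GRCm38.p6, the assembly of the mm10 build. The table held 21045 windows for 17274 of the 21631 protein-coding genes. Of the 1230 regions, 16 (1.30%) overlapped such a window, on 17 windows of 16 genes, against 22 of the 572 Res-ctrl-only regions (3.85%). The share over all merged regions is not given here, and genes without a window could not be counted. Shown are the 5 whose weakest Res-shFabp7 peak was strongest, as the places where the Res-shFabp7-only signal reached or came near a gene start. Each line gives the 250 bases before the start, 5′ to 3′ on the strand of the gene, and capitals mark the bases that the called region covered.
Usp10 promoter, chr8:119910110-119910359, plus strand: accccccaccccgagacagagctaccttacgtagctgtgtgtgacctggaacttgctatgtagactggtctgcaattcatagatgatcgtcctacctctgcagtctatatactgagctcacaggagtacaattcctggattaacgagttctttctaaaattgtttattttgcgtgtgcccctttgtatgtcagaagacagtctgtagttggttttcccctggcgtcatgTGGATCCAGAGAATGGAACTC
Olr1 promoter, chr6:129507166-129507415, minus strand: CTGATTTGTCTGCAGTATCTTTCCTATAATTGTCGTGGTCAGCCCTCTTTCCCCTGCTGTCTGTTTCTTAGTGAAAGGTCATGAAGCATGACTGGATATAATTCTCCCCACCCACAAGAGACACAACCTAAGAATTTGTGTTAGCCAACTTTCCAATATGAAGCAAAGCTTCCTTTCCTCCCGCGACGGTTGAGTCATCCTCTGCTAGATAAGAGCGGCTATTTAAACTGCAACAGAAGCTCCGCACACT
Nubpl promoter, chr12:52097496-52097745, plus strand: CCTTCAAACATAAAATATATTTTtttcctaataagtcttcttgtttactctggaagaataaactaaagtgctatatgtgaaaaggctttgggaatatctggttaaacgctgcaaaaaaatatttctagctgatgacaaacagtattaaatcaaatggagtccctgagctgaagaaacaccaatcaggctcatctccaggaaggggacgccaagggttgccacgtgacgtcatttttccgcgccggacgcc
Kcnh1 promoter, chr1:192190527-192190776, plus strand: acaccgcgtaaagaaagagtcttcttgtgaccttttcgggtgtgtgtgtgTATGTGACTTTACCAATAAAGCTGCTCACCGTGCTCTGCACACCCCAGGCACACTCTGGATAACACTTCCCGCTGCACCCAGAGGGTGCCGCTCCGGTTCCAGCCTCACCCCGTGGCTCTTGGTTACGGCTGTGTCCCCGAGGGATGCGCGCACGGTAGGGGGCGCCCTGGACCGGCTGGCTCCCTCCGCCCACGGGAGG
Trak1 promoter, chr9:121297252-121297501, plus strand: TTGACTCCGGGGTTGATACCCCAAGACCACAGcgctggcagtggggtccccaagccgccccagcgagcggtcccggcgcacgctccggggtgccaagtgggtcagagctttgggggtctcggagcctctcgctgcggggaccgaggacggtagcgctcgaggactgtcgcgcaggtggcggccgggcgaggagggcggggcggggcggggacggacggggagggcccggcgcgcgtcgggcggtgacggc

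The Olr1 promoter was the only 1 of these 5 that the called region covered from end to end. The start used, at 129507165 on the minus strand, lay inside the gene span of 129479150 to 129507350. Olr1 encodes a scavenger receptor for oxidised low-density lipoprotein. Its region, chr6:129507030-129507447, had a −log10 q of 13.6, 9.73 and 17.9 in Res-shFabp7 replicates 1, 2 and 3, with 8.88-, 7.49- and 10.7-fold enrichment over the local background. No Res-ctrl peak of any strength lay within 6133 bp of it. The AP-1 letters TGANTCA stood 60 bases before the start and the NFY letters CCAAT 98 bases before it, both in the covered part.

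The region at Kcnh1, which encodes a voltage-gated potassium channel, covered 200 of the 250 bases, with folds of 8.39, 6.96 and 7.15. Res-ctrl replicate 3 had a weaker peak there, of −log10 q 3.72, below the end of its cut list. The start used at Kcnh1, at 192190777, lay inside the gene span of 192189144 to 192510159 and not at its end. Within the covered bases stood the ETS letters GGAAGTG (137 bases before this start), the CTCF core letters AGGGGGC (43 bases) and CCAAT (188 bases). At Usp10, a deubiquitinase gene, the region covered the last 21 bases before the start and went on into the gene, with a −log10 q of 16.7, 12.4 and 12.4. At Nubpl, whose product assembles mitochondrial complex I, and Trak1, whose product links mitochondria to kinesin, the region covered only the far 23 and 32 bases. The E-box CACGTG and CRE TGACGTCA at Nubpl, and the SP/KLF letters GGGCGGG at Trak1, therefore lay outside the called regions.

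All 14 motifs were searched on both strands of the 300-base windows, and a match describes the letters only. AP-1 letters were in 2 of the 17 windows (11.8%, against 7.04% of all 21045 windows). ETS letters were in 3 (17.6% against 12.1%), and the E protein letters CAGCTG in 4 (23.5% against 15.7%). GGGCGGG was in 6 (35.3% against 34.2%) and CCAAT in 5 (29.4% against 38.5%). AGGGGGC was in 2 (11.8% against 13.0%), and CACGTG, TGACGTCA and the STAT letters TTCNNNGAA were in 1 window each (5.88%, against 7.91%, 2.26% and 7.76%). No window held the RUNX letters TGTGGTT, TCF/LEF letters CTTTGAA, NFAT letters GGAAAAT, NF-kappaB letters GGGANTTCC or IRF letters GAAANNGAA, which were in 4.74%, 4.55%, 4.30%, 1.86% and 8.10% of all windows. The E protein count includes both of the overlapping windows of Ccrl2, which share a region. Median GC content was 59.3% in the 17 windows and 56.7% in all. It was 60.2% in windows of Res-ctrl-only regions and 62% in windows of regions open in all 6 libraries. In the latter windows AP-1 letters were in 4.22%, ETS letters in 16.2% and CAGCTG in 13.7%. GGGCGGG was in 51.6% of them and CCAAT in 39.2%.

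A pair of the regions lay over microRNA hairpins, Mir1904 on chromosome 13 and Mir219a-1 on chromosome 17. These hairpins were looked at after their values were known. Their mature sequences, from RefSeq, are shown to identify them, with the seed (bases 2 to 8) in capitals, and they share no seed. A peak over a hairpin does not show that the microRNA was made.
mmu-miR-1904: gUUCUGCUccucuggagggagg
mmu-miR-219a-1-3p: aGAGUUGCgucuggacgucccg
mmu-miR-219a-5p: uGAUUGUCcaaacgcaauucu

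The ratio of Res-shFabp7 to Res-ctrl regions rose with the number of libraries of a group that shared a region. Regions with a peak in 1 library of a group and none of the other group were about as many on either side, 10641 for Res-shFabp7 and 11208 for Res-ctrl. Those in 2 libraries numbered 3055 and 2370, and those in 3 numbered 1230 and 572. The excess for Res-shFabp7 was thus seen among regions that several libraries shared, and it was 2.15-fold at 3 libraries. The share of merged regions that were Res-shFabp7-only ran from 0.825% on chromosome 7 to 1.56% on chromosome 1. The Res-ctrl-only share ran from 0.353% on chromosome 16 to 0.735% on chromosome 14. Chromosomes divide the same chosen regions and are not replicates.

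**Figure D1:**
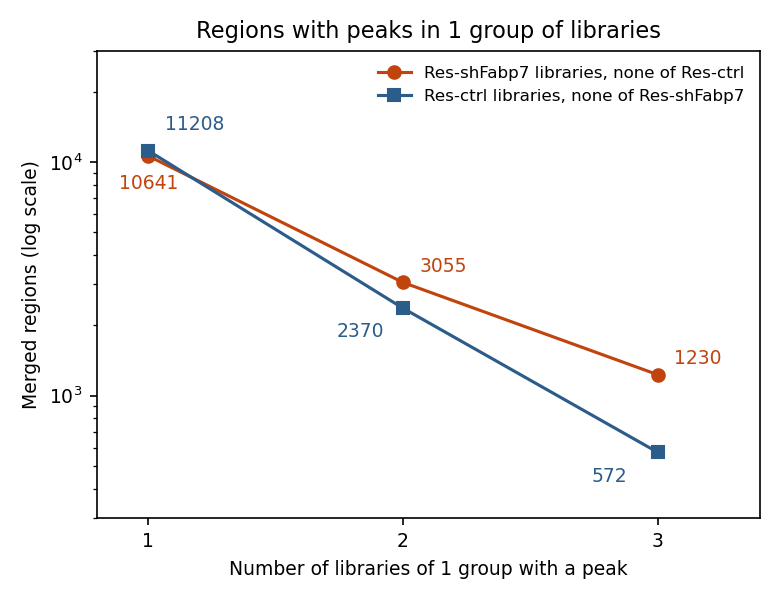
Number of merged regions (vertical axis, log scale) with a peak in 1, 2 or 3 libraries of 1 group (horizontal axis) and none of the other group, from lists of equal length. Circles are Res-shFabp7 and squares Res-ctrl; the lines lie together at 1 library (10641 and 11208) and apart at 3 (1230 and 572).

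Whether the pattern held in a library that did not choose the regions was read by choosing from 2 libraries of each group and looking in the 1 left out of each, in all 9 ways. Each choice gave between 3160 and 4278 regions. The left-out Res-shFabp7 library held a peak in 56.7% to 65.0% of them, and the left-out Res-ctrl library in 29.5% to 46.0%. The share was higher in the left-out Res-shFabp7 library in 9 of 9 choices, by 16.4 to 29.6 percentage points. Res-ctrl replicate 3 differed from the other Res-ctrl libraries. Left out, it held a peak in 44.7% to 46.0% of the regions, against 29.5% to 31.1% for Res-ctrl replicates 1 and 2. The 9 choices share libraries and are not independent, so no p-value is given.

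For comparison, over all regions of these merges, the left-out libraries held a peak in 71.5% to 72.7% (Res-shFabp7) and 67.7% to 71.7% (Res-ctrl). The mirrored choice kept its direction in 9 of 9 choices as well, with smaller differences. Regions chosen for Res-ctrl had a peak in 46.5% to 52.4% of cases in the left-out Res-ctrl library and in 37.0% to 39.6% in the left-out Res-shFabp7 library, 8.84 to 15.3 points apart.

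**Figure D2:**
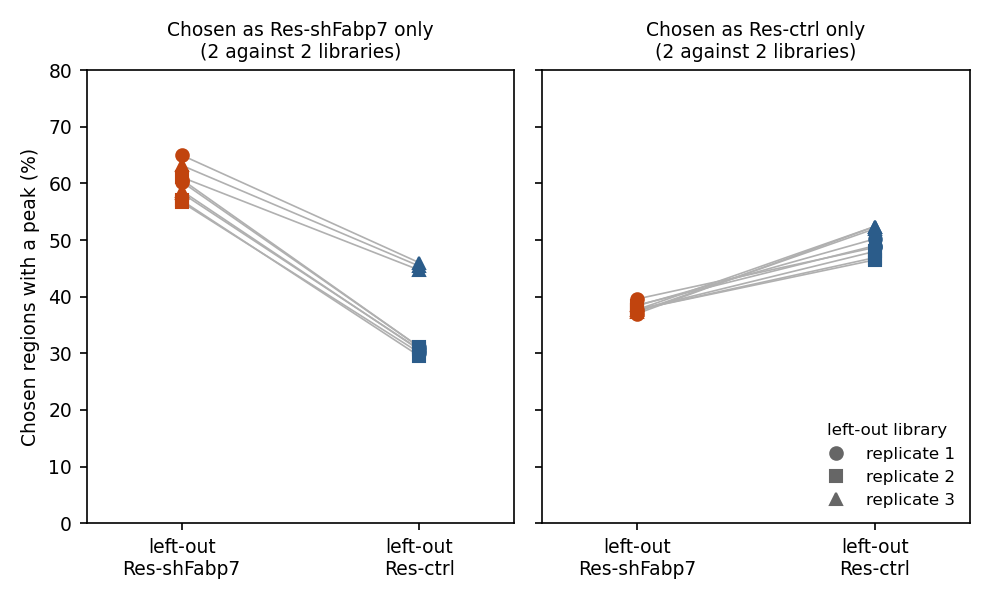
Share of regions (%) with a peak in the library left out of each group, for the 9 choices of left-out libraries, with regions chosen as Res-shFabp7-only in one panel and as Res-ctrl-only in the other. Each line joins the 2 left-out libraries of 1 choice; in the first panel the Res-shFabp7 end lies between 56.7% and 65.0% and the Res-ctrl end between 29.5% and 46.0%.

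The Res-shFabp7-only regions were among the weaker peaks of their lists. Median −log10 q over the 1230 regions was 9.55, 8.56 and 9.20 in Res-shFabp7 replicates 1 to 3, and median fold 6.62, 6.42 and 6.59, against list medians of 8.65-, 8.56- and 8.66-fold. The best-placed region stood at rank 28724, 29491 and 27291 of 82153, and 97.4%, 97.4% and 96.8% of the regions lay in the weaker 50% of the list. Res-ctrl-only regions sat as low in theirs, with median ranks of 66396, 65488 and 68486 against 63862, 64858 and 63769. Regions open in all 6 libraries had median ranks of 26717 to 27720.

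**Figure D3:**
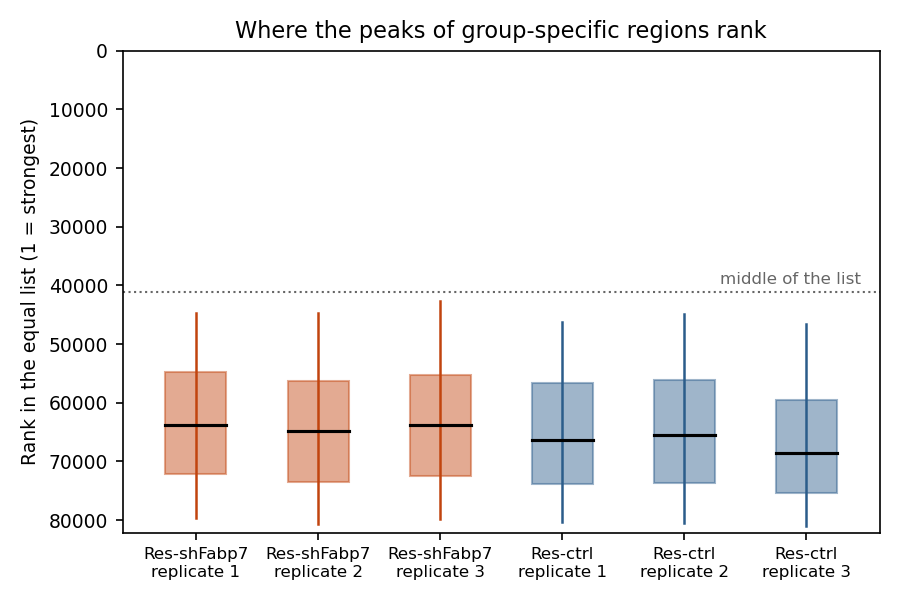
Rank in the equal list (1 is the strongest of 82153) of the Res-shFabp7-only regions in the 3 Res-shFabp7 libraries and of the Res-ctrl-only regions in the 3 Res-ctrl libraries, as boxes with median, quartiles and whiskers from the 5th to the 95th percentile. Medians lie between 63769 and 68486, in the weaker part of every list.

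Absence from the Res-ctrl lists did not always mean that no peak had been called. The rule applied to the full deposited lists gave 3065 of 134151 merged regions (2.28%). In these lists, 708 of the 1230 regions (57.6%) had no Res-ctrl peak, 482 had a weaker one in 1 Res-ctrl library and 40 in 2. Of those weaker peaks, 490 were in Res-ctrl replicate 3 (median −log10 q 3.84), 72 in replicate 1 (median 2.77) and 0 in replicate 2. These numbers follow the room left below the cut, which removed 14157 peaks from replicate 3, 2691 from replicate 1 and 0 from replicate 2. The weakest peaks kept had a −log10 q of 5.62, 5.24 and 5.54 in the Res-shFabp7 lists and of 2.77, 1.31 and 4.98 in the Res-ctrl lists. Every Res-ctrl list thus reached further down in −log10 q than any Res-shFabp7 list did. Of the 572 Res-ctrl-only regions, 133 (23.3%) had no peak in the full Res-shFabp7 lists, which were longer.

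Depth moved in part with the group. The local background behind the deposited folds gave relative depths of 1.03, 0.868 and 0.959 for Res-shFabp7 and of 0.709, 0.608 and 1.01 for Res-ctrl replicates 1 to 3. Res-ctrl replicate 3, as deep as the Res-shFabp7 libraries, was also the one with a peak in the largest share of regions when left out and with most of the weaker peaks. In the choices that left it out, the difference was 16.4 to 19.1 points, and in those that left out replicate 1 or 2 it was 26.5 to 29.6 points. The part of depth in the count was not tested beyond these values.

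Within a region, the 3 Res-shFabp7 libraries placed their summits close together, with a median span of 40 bp, and 60.2% of regions had all 3 summits within 50 bp. The span was 38 bp for Res-ctrl-only regions and 20 bp for the Res-shFabp7 summits of regions open in all 6 libraries. The regions were 80 to 617 bp wide, with a median of 210 bp, against 371 bp for regions open in all 6 libraries. The lowest of the 3 −log10 q values of a region ranged from 5.24 to 17.4, with a median of 6.96. It passed 10 in 128 of the 1230 regions. The same value over the Res-ctrl libraries passed 10 in 10 of the 572 Res-ctrl-only regions, but −log10 q also depends on depth, and the list medians were 18.6 or more in Res-shFabp7 and 13.0 to 19.2 in Res-ctrl libraries.

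The regions lay away from gene ends. Of the 1230, 697 (56.7%) were inside a protein-coding gene, a share close to that of all merged regions (60.2%). Only 7.15% lay within 1 kb of an end of a gene, against 16.8% of Res-ctrl-only regions, 25.4% of regions open in all 6 libraries and 18.9% of all merged regions. Median distance from the summit to the nearest gene end was 18783 bp, against 10276, 8594 and 11303 bp in those 3 sets. More than 100 kb from any protein-coding gene lay 91 regions (7.40%), against 3.32%, 3.83% and 4.67%. The genes around the regions inside genes were long, with a median of 88944 bp against 69598 bp over all merged regions. These are shares over regions. Exon, intron and UTR positions were not used here.

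Position changed in step with the number of Res-ctrl libraries that shared a region. Among regions with a peak in 3 Res-shFabp7 libraries, the share within 1 kb of a gene end was 7.15% with 0 Res-ctrl libraries, 9.10% with 1, 11.4% with 2 and 25.4% with 3. Median lowest −log10 q went from 6.96 through 7.41 and 8.30 to 29.1 over the same steps, so that position and peak strength moved together. Within the Res-shFabp7-only regions, the 128 strongest and the other 1102 had shares at gene ends of 7.81% and 7.08%. Their lowest −log10 q was at most 17.4, below the median of 29.1 above, so this split covers only the weak end of that range. The 128 were less often inside a gene (46.1% against 57.9%) and more often over 100 kb from one (12.5% against 6.81%), and 53.9% and 58.0% of them had no Res-ctrl peak in the full lists.

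**Figure D4:**
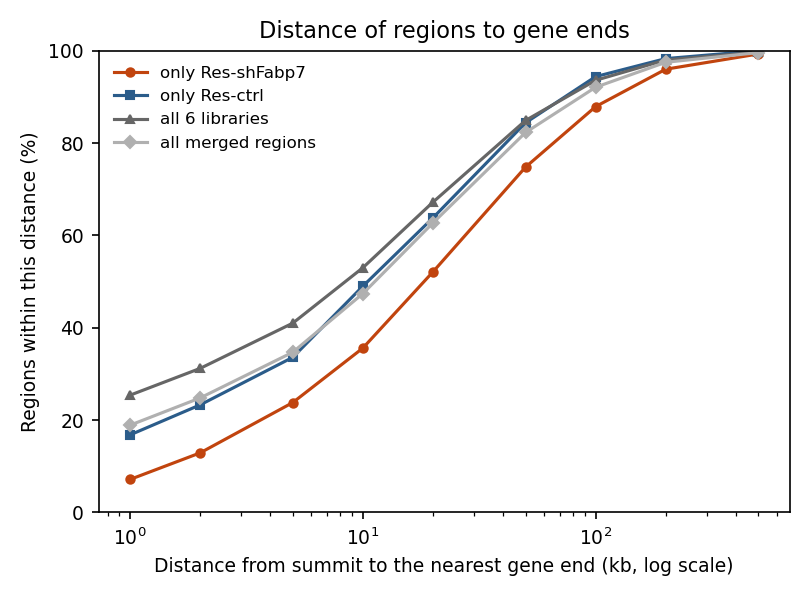
Share of regions (%, vertical axis) whose mean summit lies within a given distance of the nearest end of a protein-coding gene (kb, horizontal axis, log scale), for Res-shFabp7-only, Res-ctrl-only, all-6-library and all merged regions. At 1 kb the Res-shFabp7-only line is at 7.15% and the line of regions open in all 6 libraries at 25.4%.

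Most regions had no other of their kind within 50 kb, in both sets. The sets differ in size (1230 and 572), and a larger set has more chances of a neighbour. Their own-kind shares are thus not directly comparable. Another Res-shFabp7-only region lay within 10 kb of 43 of them (3.50%) and within 50 kb of 202 (16.4%), against 4.55% and 11.9% for Res-ctrl-only regions. A region open in all 6 libraries lay within 10 kb of 685 (55.7%), against 86.9% for Res-ctrl-only regions, and within 50 kb of 1095 (89.0%) against 95.8%. From the nearest Res-ctrl peak of the full lists, 187 regions (15.2%) were more than 10 kb away. The mirrored count, from the nearest Res-shFabp7 peak, was 3 Res-ctrl-only regions (0.524%), and the full Res-shFabp7 lists were longer. Shares over all merged regions are not given here for these distances.

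Chromatin around the regions was compared between the groups, since the rule did not choose by it directly. The flank is not fully independent of the choice, because a Res-ctrl peak just short of overlap counts as flanking. In the full lists, 104 regions had a Res-ctrl peak within 200 bp without overlap. Per 1000 peaks of a library, 27.7 ± 0.204 (SD, n = 3) lay within 10 kb of a Res-shFabp7-only region without being part of it in Res-shFabp7 libraries, and 27.7 ± 0.525 in Res-ctrl libraries. The difference was −0.0533 (two-sided exact permutation test, p = 0.900, Benjamini-Hochberg adjusted over 4 tests 0.900), and the values of the groups overlapped. The 1473 neighbouring regions open in all 6 libraries had a median rank of 27839 ± 206 in Res-shFabp7 and of 27992 ± 437 in Res-ctrl libraries (exact permutation p = 0.8, adjusted 0.900). At 10 kb neither measure differed by more than the spread between libraries. At 50 kb the differences were −1.35 peaks per 1000 and −763 ranks, with no overlap between the groups (both exact permutation p = 0.1). The rank scale itself differed between libraries, since all 52189 regions open in all 6 had median ranks of 26717 to 26871 in Res-shFabp7 and of 26832 to 27720 in Res-ctrl libraries. Taken relative to that median, a comparison added after the values were seen, neighbours within 10 kb ranked 1158, 1095 and 884 places weaker in Res-shFabp7 replicates 1 to 3 and 467, 724 and 740 in Res-ctrl (exact permutation p = 0.1). Within 50 kb the order was the opposite, 518, 618 and 632 against 853, 671 and 868 (exact permutation p = 0.1). With 3 against 3 libraries the smallest p the test can give is 0.1, so that no difference could have passed 0.05. For Res-ctrl-only regions, flanking peaks numbered 23.1 ± 0.249 and 24.1 ± 0.422 per 1000, and the median rank of 1322 neighbours was 26568 ± 112 and 26170 ± 187 (both exact permutation p = 0.1, adjusted 0.200). The p-values measure the spread between these libraries only.

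The strongest regions, by their weakest Res-shFabp7 peak and leaving out unnamed gene models, are given by their nearest gene. The highest lay inside Dnmbp (chr19:43896098-43896469), which encodes an activator of the small GTPase Cdc42. Its −log10 q was 18.7, 17.4 and 17.6 in Res-shFabp7 replicates 1 to 3, and its folds were 10.9, 10.7 and 10.5, with summits within 1 bp. Res-ctrl replicate 3 had a weaker peak there of −log10 q 3.72. Next came a region (chr14:46671088-46671372) 89229 bp from Cdkn3, which encodes a phosphatase acting on cyclin-dependent kinases, with a −log10 q of 17.4, 30.3 and 17.9. After it came a region inside Otud7b, a deubiquitinase gene of NF-kappaB and T cell receptor signalling, with 22.7, 17.4 and 19.3.

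A region 1318 bp outside Ccr6, the receptor for the chemokine CCL20, had a −log10 q of 15, 16.0 and 17.0 and folds of 8.64, 9.56 and 9.25 in the 3 Res-shFabp7 libraries. Its 3 values were closely alike, and its weaker Res-ctrl replicate 3 peak was at 3.37. Inside Tbc1d5, which encodes a regulator of Rab GTPases in endosomal sorting, a region reached a −log10 q of 28.3, 14.7 and 19.3, with 1.95 in Res-ctrl replicate 3. Of the 15 strongest, 9 had a weaker peak in Res-ctrl replicate 3 (1 of them, at Wdfy1, in replicate 1 too) and 6 had no Res-ctrl peak in the full lists.

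Those 6 lay at Ext1, Ide, Camk4, Wwox, Grap and Ints6. The Camk4 region (chr18:32993053-32993261) was inside the gene, which encodes a calcium/calmodulin-dependent kinase downstream of the T cell receptor, and had a −log10 q of 21.3, 15 and 14.7. A Res-ctrl peak without overlap began 45 bp away. The Grap region, 15112 bp from the gene of an adaptor of the Grb2 family, had 21.4, 14.6 and 22.2, and its nearest Res-ctrl peak was 509 bp away. At Ext1 and Ide the nearest Res-ctrl peak was 55142 and 27149 bp away. The Ext1 region (chr15:53000060-53000458), 67894 bp from this heparan sulphate polymerase gene, had a −log10 q of 14.8, 16.1 and 15.3. The Ide region (chr19:37293191-37293465), inside the gene of the insulin-degrading enzyme, had 21.3, 14.7 and 19.3.

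**Figure D5:**
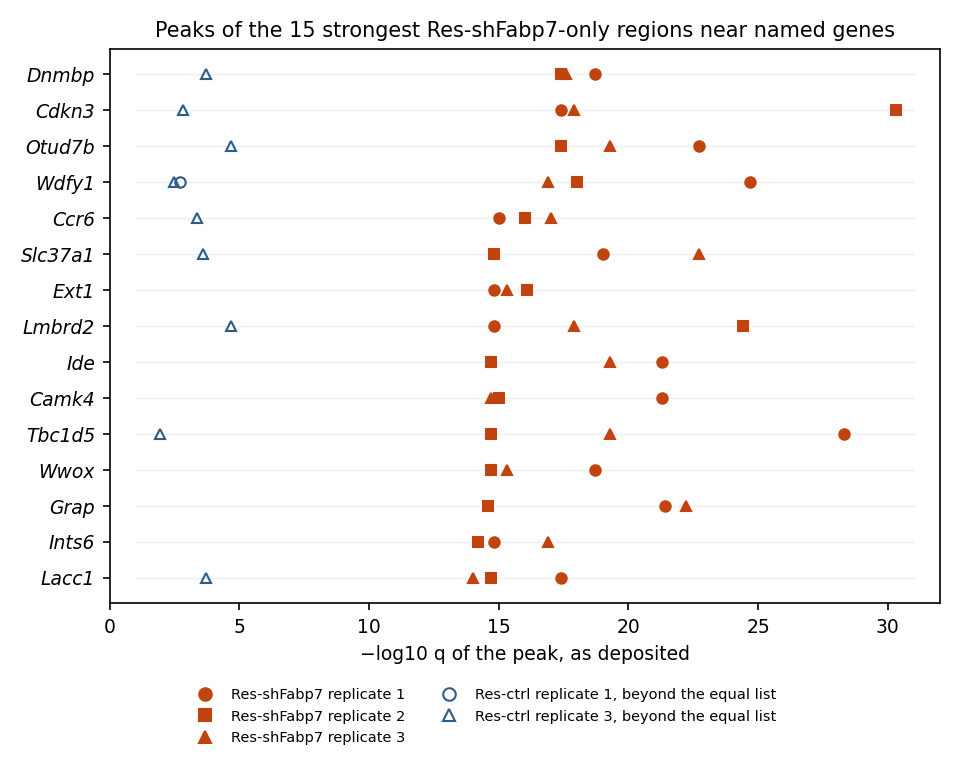
Deposited −log10 q (horizontal axis) of the 15 strongest Res-shFabp7-only regions at named genes, with filled symbols for the 3 Res-shFabp7 replicates and open symbols for weaker Res-ctrl peaks beyond the equal list. Filled symbols lie between 14.0 and 30.3 and open symbols between 1.95 and 4.68; 6 regions have no open symbol.

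Some strong regions had no protein-coding gene within 100 kb, and these were singled out after their values were seen. The strongest, chr1:94456542-94456776, was 404091 bp from the nearest such gene, had a −log10 q of 16.1, 16.1 and 17.9, and had no Res-ctrl peak. On chromosome 10, 3 such regions stood near each other, at chr10:66844585-66844841, chr10:66844935-66845261 and chr10:66870922-66871306. Their −log10 q in Res-shFabp7 replicates 1 to 3 was 16.1, 15.6 and 19.2 for the first, 16.2, 14.1 and 11.6 for the second and 14.4, 11.9 and 19.6 for the third, with weaker Res-ctrl replicate 3 peaks of 3.72, 4.68 and 3.07.

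The regions were spread over 1035 genes, the nearest protein-coding gene within 100 kb being taken for each. Of these, 949 had 1 region, 72 had 2 and 14 had 3 or more. A region open in all 6 libraries was also assigned to 936 of the genes (90.4%), against 87.3% of the 15692 genes with any region. These shares were close, so a region open in both groups was common to genes with any region. A Res-ctrl-only region lay at 75 of the 1035 genes, beside 525 of the 15692 genes with any region. The number of regions per gene was not taken into account in this count.

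Lpp, a long gene for a LIM-domain protein of cell adhesions, had the most, with 7 of its 107 regions, 6 of them inside the gene. Of the 7, 2 had no Res-ctrl peak in the full lists. Its strongest, chr16:24424842-24425148, had a −log10 q of 13.0, 11.3 and 9.14, and its best in a single library, chr16:24527346-24527518, had 8.83, 12.2 and 19.3. Long genes with many regions have more chances to hold 3.

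Genes with 3 also included the shorter Klf6 (8905 bp), Tnfaip3 (14501 bp), Mrpl39 (16964 bp) and Atp12a (23883 bp). Tnfaip3 encodes A20, a ubiquitin-editing enzyme that restrains NF-kappaB signalling. Its 3 regions, of 38, were 12889 bp outside, inside and 62817 bp outside the gene. The first, chr10:18987901-18988121, had a −log10 q of 22.9, 8.16 and 18.2, and replicate 2 was the lowest there. The 3 regions of the zinc finger factor gene Klf6 were 16679, 69374 and 87444 bp outside the gene, and none had a Res-ctrl peak in the full lists. The nearest, chr13:5844600-5844889, had 14.9, 13.5 and 10.7. At Atp12a, a proton pump gene, 3 of only 7 regions were Res-shFabp7-only, and they lay 7750, 12522 and 39464 bp outside the gene. The strongest (chr14:56356731-56357040) had 11.1, 17.4 and 17.9, with a weaker Res-ctrl replicate 3 peak of 2.81.

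Bach2, whose product represses effector differentiation of T cells, had 3 regions of 152, all inside the gene. The strongest, chr4:32331614-32331833, had a −log10 q of 16.3, 9.84 and 14.2 at folds of 4.42, 3.73 and 4.21, and 2 of the 3 had no Res-ctrl peak. Arid1b, a subunit of the BAF chromatin remodelling complex, had 3 inside the gene, of 86 regions, and none of the 3 had a Res-ctrl peak. The others with 3 were Dusp22 (a phosphatase that restrains T cell receptor signalling), Erc1, Fars2, Foxn3, Hivep3, Pced1b and Pebp4. Bach2, Arid1b, Lpp, Dusp22 and Pced1b each had 1 Res-ctrl-only region as well, and the other 9 genes had 0. Over all 14 genes, 30 of the 46 regions were inside the gene and 26 had no Res-ctrl peak in the full lists.

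Genes of T cell function were read through 22 lists of 491 symbols, of which 488 matched. At these genes lay 75 of the 1230 regions (6.10%), against 7200 of all merged regions (6.63%). Res-shFabp7-only regions were 1.04% of the regions at list genes, beside 1.13% of all regions. The lists as a whole therefore held about the share that all regions did.

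Among receptor and signalling genes, the list of CD8 T cell identity and T cell receptor signalling had 11 of 1164 regions (0.945%), among them regions at Camk4, Cd2, Cd28, Cd3e, Fyn, Grap, Prkcq and Tcf12, beside 7 Res-ctrl-only regions. A region inside Cd3e, which encodes a chain of the T cell receptor complex, had a −log10 q of 9.12, 8.96 and 15.9, with 2.76 in Res-ctrl replicate 3. Cd28, the costimulatory receptor that the culture engaged, had 2, at 10.7, 9.26 and 14.9 (32561 bp outside the gene) and at 5.90, 7.15 and 6.69 (inside it). Costimulation and E3 ligase brakes had 2 of 377, at Dgkz, a diacylglycerol kinase that dampens receptor signalling, and Nedd4, beside 0 Res-ctrl-only regions. The checkpoint and exhaustion list had 4 of 393, at Btla (2), Maf and Tox, beside 1. Both Btla regions, near the gene of this inhibitory receptor, had weaker Res-ctrl replicate 3 peaks, at 4.85 and 4.68. The list of Notch, Wnt and TGF-beta genes had 10 of 556 (1.80%), at Bmpr2, Dtx1, Hes1, Maml2, Maml3, Smad3, Smad4, Smad7 and Tgfbr3, and 0 Res-ctrl-only regions. Of these 10, 4 had no Res-ctrl peak in the full lists.

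Among effector and cytokine genes, the cytotoxic effector list had 3 of 264 regions beside 2 Res-ctrl-only regions, and none of the 3 had a Res-ctrl peak in the full lists. The region 6092 bp from Ifng, the gene of interferon gamma, had a −log10 q of 9.36, 9.93 and 9.60 (chr10:118451797-118452187). The region 29169 bp from Gzmb, the gene of the killing protease granzyme B, had 7.64, 11.5 and 10.5, and that 4092 bp from Prdm1, the effector factor Blimp-1, had 6.89, 9.37 and 12.1. Cytokines and their receptors had 3 of 520 (0.577%), at Il10, Il2 and Stat4, each with a weaker peak in Res-ctrl replicate 3, and as many Res-ctrl-only regions (3). The region 35262 bp from Il2 (chr3:37161039-37161384), the gene of the T cell growth factor interleukin 2, had 33.9, 11.8 and 24.9 and folds of 13.7, 7.84 and 11.5, with 3.6 in Res-ctrl replicate 3. It was the strongest peak of any Res-shFabp7-only region in Res-shFabp7 replicate 1, and much weaker in replicate 2. Chemokine receptors and adhesion had 4 of 318, at Ccr2, Ccr6, Ccr9 and Selplg, beside 3 Res-ctrl-only regions, 1 of them at Ccr9.

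Among transcription factors, the activation list had 6 of 522, at Fosl2, Ikzf3 (2), Irf4 and Nfatc3 (2), beside 3 Res-ctrl-only regions. Irf4, induced by receptor signals, had a region 9266 bp outside the gene with a −log10 q of 16.8, 12.4 and 13.2 and no Res-ctrl peak in the full lists (chr13:30739832-30740040). Of the 3 Res-ctrl-only regions, 1 was also at Irf4. The naive and memory list had 11 of 945, at Actn1, Bach2, Bcl2, Ccr7, Foxo1, Foxp1, Lef1, Myb and Satb1, beside 7 Res-ctrl-only regions, 4 of which were at Lef1. Chromatin modifiers had 4 of 426, 3 of them at Arid1b and 1 at Smarca4, beside 4 Res-ctrl-only regions.

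Metabolic and death genes had shares from 0% to 1.07%, beside 1.13% of all regions. The ferroptosis and iron list had 0 of 180 regions, and 2 Res-ctrl-only regions. Fatty acid uptake and metabolism had 2 of 286 (0.699%), beside 1 Res-ctrl-only region, at Acadl and Cpt2, which act in mitochondrial fatty acid oxidation. The Cpt2 region, 15696 bp from the gene, had a −log10 q of 7.73, 7.41 and 14.0. Glycolysis, hypoxia and nutrient transport had 3 of 305 (0.984%), at Epas1 and Hif1a (2), and 3 Res-ctrl-only regions, 2 of them at Epas1. Apoptosis had 3 Res-ctrl-only and 3 Res-shFabp7-only regions of 280 (1.07%), the latter including regions at Bcl2 and Casp8, both with a weaker Res-ctrl replicate 3 peak (−log10 q 4.06 and 3.72). The circadian clock list had 2 of 263, at Csnk1d and Nfil3, beside 1 Res-ctrl-only region, also at Nfil3. The interferon list had 2 of 247, at Irf2 and Rsad2, beside 0.

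Markers of other cell types were read in the same way. All 11 CD8 T cell markers and all 5 activated effector markers had a region open in all 6 libraries, and so did 5 of 5 CD4 and regulatory T cell, 5 of 7 B cell, 5 of 8 myeloid, 3 of 5 natural killer and 3 of 4 erythroid markers. Of 6 epithelial markers, Epcam and Cdh1 had such a region and 4 (Krt8, Krt18, Nkx2-1 and Sftpc) had no region. The longer list of B cell markers had 3 of its 51 regions Res-shFabp7-only (5.88%, beside 1.13% of all regions) and 0 Res-ctrl-only. The 3 lay at Cd74, Cd79a and Ebf1, each with a weaker Res-ctrl replicate 3 peak (−log10 q 4.89, 4.30 and 3.35). Ms4a1 had no region. B cell marker genes held 39 to 41 peaks in Res-shFabp7 and 32 to 37 in Res-ctrl lists. These counts include the 3 regions, which the rule requires in every Res-shFabp7 list and in no Res-ctrl list of equal length. The gap between the groups is thus partly set by the choice of regions. The myeloid list had 3 of 92 (3.26%), at Adgre1, Ly6g and S100a9, beside 1 Res-ctrl-only region. It held 62 to 65 and 60 to 63 peaks per library, counts that again include the chosen regions. The B cell and myeloid shares were the highest of the 22 lists, each from few regions. Natural killer, CD4 and regulatory T cell, epithelial tumour, and erythroid and megakaryocyte lists had 0 of 40, 233, 28 and 20. Peak counts there were 25 to 27 and 25 to 29 for natural killer, 157 to 173 and 167 to 180 for CD4 and regulatory T cell, 23 to 24 and 20 to 24 for epithelial and 17 to 19 and 17 to 23 for erythroid markers. The part of other cells in the Res-shFabp7-only regions was not tested.

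The cut decided membership by small margins. Just inside were regions at Ppp2r2a and Pebp4 and one with no gene nearby (chr14:71146521-71146783), whose Res-shFabp7 replicate 2 peak had a −log10 q of 5.24, the weakest value kept in that list. Just outside were regions at Mettl8 and Zfp184, through Res-ctrl replicate 2 peaks of −log10 q 1.41, at ranks 82131 and 82130 of 82153. The Zfp184 region had a −log10 q of 20.4, 13.5 and 15.9 in Res-shFabp7 replicates 1 to 3, and the Mettl8 region 10.4, 7.83 and 5.67.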

How the data were processed

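ATAC-seq was read from peak lists, 1 per library, for 3 Res-shFabp7 and 3 Res-ctrl T cell libraries. The submitters' processing notes name Trim Galore 0.6.5, cutadapt 2.8, Bowtie 1.1.2, MACS2 2.2.7.1 and the mm10 build. Whether reads were shifted, duplicates removed or a paired mode used is not given by those notes, the labels or the headers; such steps could move peak edges and counts. The deposited columns, per the file headers, give each peak's position, its −log10 p and q, its pileup (a coverage signal, fragments stacked at the top of the peak) and its fold (a ratio over local background). These are the authors' values per peak and were used to rank and describe peaks within a list; where −log10 q or fold is set side by side across libraries, depth affects it.

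The lists were cut to equal length and merged with Python 3.11.15, numpy 2.4.6 and pandas 2.3.3, and scipy 1.17.1 gave the exact tests. Relative depth came from the local background that pileup and fold imply. The code was checked on simulated lists. The regions and gene lists were chosen with earlier results of these data known. Named were the 15 strongest regions, genes with at least 3, up to 4 genes per list, 5 promoters and the regions at the edge of the cut; a few others are said to be chosen after their values were seen. A few items that this rule names are not reported here. Genes and promoters came from RefSeq GRCm38.p6, whose promoter windows do not cover every gene. Alternatives were other list lengths, rankings and merging rules, and leaving out each library.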

Additional observations from a re-analysis of the deposited data

How the results depend on the processing

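With all deposited peaks the count of Res-shFabp7-only regions was 3065 and that of Res-ctrl-only regions 208. With the 40000 strongest peaks per list the counts were 680 and 324, and with the 20000 strongest 309 and 176, and none of the 1230 regions was among either; with the 60000 strongest, 134 (10.9%) were. Ranking by fold gave 1562 and 960, merging across 200 bp 1090 and 379, requiring 50% of a region covered 2124 and 489, and summit windows 1288 and 866. Res-shFabp7-only regions were the majority under each of these, at 59.8% to 93.6% of both kinds, against 68.3% as reported; leaving out a Res-ctrl library gave 58.2%, 56.5% and 65.8% for replicates 1, 2 and 3. Of the 1230, 672 were kept when ranked by fold and 659 by pileup. Leaving out 1 library loosens the rule to 2 libraries of a group and gave 1874 to 2576 Res-shFabp7-only regions (2576 without Res-ctrl replicate 3) and 1058 to 1445 Res-ctrl-only regions.

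The differences around the Res-shFabp7-only regions kept their sign at 50 kb (−1.35 peaks per 1000 and −763 ranks) and changed it under other settings. The flanking difference of Res-shFabp7-only regions was 0.166 for regions without any Res-ctrl peak, 0.116 with all deposited peaks and −0.35 to 0.15 without single libraries. Their neighbours' rank difference was 134 within 5 kb, 130 without any Res-ctrl peak and −362 to 73.5 without single libraries, and that of Res-ctrl-only regions was −522 where no peak of the other group was called; the flanking difference of Res-ctrl-only regions kept its sign under every setting run (−0.349 to −1.95). Relative to the median of all regions open in all 6 libraries, chosen after seeing the data, the neighbours' rank difference of Res-shFabp7-only regions was 402 at 10 kb and −208 at 50 kb. The cause was not tested. The share near gene ends was 23.8% at 5 kb and 8.76% for regions without any Res-ctrl peak. Regions at list genes numbered 178 with all deposited peaks and 39 without any Res-ctrl peak. A paired test (replicate block), also added after seeing the data, left the differences at −0.0533 (exact p = 1) and −153 (exact p = 0.75) for Res-shFabp7-only and at −0.95 and 398 (both exact p = 0.25, the smallest that 3 pairs allow) for Res-ctrl-only regions. Same-numbered libraries did not deviate together over regions open in all 6 (r = −0.0212, 0.0255 and −0.0128), and they share only a number. Peaks near the end of a list rest on few reads, which limits how firmly absence can be read.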
